A study of Sus scrofa with 20 samples.

Results

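The 6 backfat libraries highest in lipogenic transcripts were compared with the 6 lowest among 20 libraries of Italian Large White pigs. Both groups were chosen by measured values, the mean of log2(CPM + 1) over the loci of FASN, SCD, ACLY and ACACA, where CPM is a count scaled to the library's total. This mean is called the lipogenic score, and the remaining 8 libraries form the middle of its range. Backfat is the subcutaneous fat of the back, and each library came from 1 pig, 10 labelled female and 10 labelled castrated male. The labels give the same housing and diet for all animals, a weight of 150 to 160 kg and an age at slaughter of 233 to 250 days. No group received a treatment, and no genotype beyond the breed is given. Library names combine the labelled sex with a running number in sample order, which pairs no animals.

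De novo lipogenesis turns glucose into fat. Citrate leaves the mitochondria and ATP citrate lyase (ACLY) splits it into acetyl-CoA, acetyl-CoA carboxylase (ACACA) makes malonyl-CoA from this, and fatty acid synthase (FASN) builds palmitate with reducing power from NADPH. Stearoyl-CoA desaturase (SCD) then sets the double bond of oleate. In pigs adipose tissue is the main site of this pathway. In bulk tissue, fewer fat cells and less of a transcript per fat cell cannot be told apart.

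The high libraries were, from the top of the ranking, female 4, castrated male 3, the library labelled female 10, female 1, castrated male 2 and castrated male 4, with scores from 10.58 to 11.09. The low libraries were the library labelled castrated male 10, female 7, castrated male 9, female 2, female 9 and castrated male 1, with scores from 9.35 down to 6.50. The lowest score of the high group, 10.5782 in castrated male 4, lay beside 10.5172 in female 6, the highest of the middle libraries. At the other end, the library labelled castrated male 10 at 9.3491 lay beside castrated male 5 at 9.6418. The low group was the more varied, with a score range of 2.85 against 0.509 in the high group and 0.875 in the middle, all in log2 units.

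The scoring loci followed the ranking by construction, and their levels are given as a description. FASN ran from 2332 through a median of 3194 to 4494 CPM in the high libraries and from 94.7 through 478 to 1167 CPM in the low ones. SCD ran from 19013 through 23719 to 28244 CPM and from 288 through 7168 to 17315 CPM. Castrated male 1 had the lowest level of each of these loci, and the library labelled castrated male 10 had the highest SCD of the low group. ACLY stood at 250 to 458 CPM in the high and 36.0 to 118 CPM in the low libraries, and ACACA at 308 to 487 CPM and 64.7 to 145 CPM. None of the 4 loci enters any test below, and a second locus with the name of one of them is not reported.

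**Figure D1:**
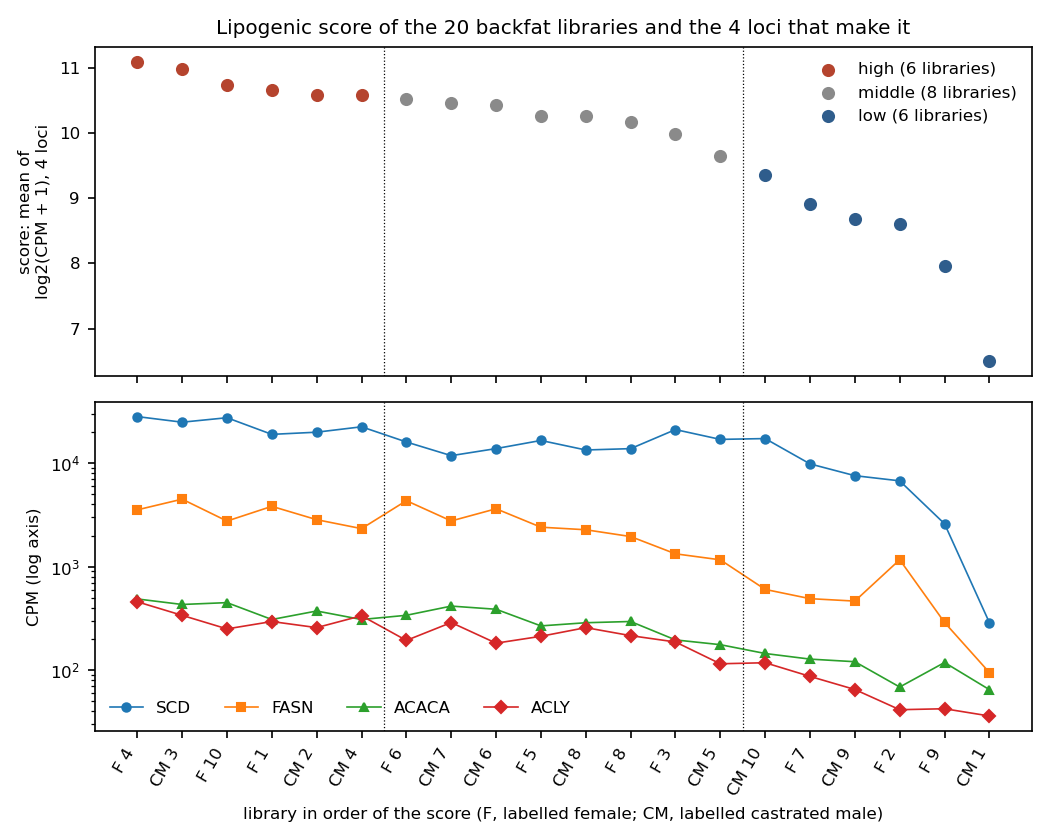
Lipogenic score (top) and CPM of the 4 scoring loci on a log axis (bottom) in the 20 libraries, ordered by score, with dotted lines between the 6 high, 8 middle and 6 low libraries. Each point is 1 library. The score falls by 0.509 across the high libraries and by 2.85 across the low ones, with castrated male 1 lowest at 6.50.

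Each group held 3 libraries labelled female and 3 labelled castrated male (Fisher's exact test, two-sided, p = 1). By the levels of the sex-specific loci described below, the high group held 2 libraries with female and 4 with male levels, and the low group 4 and 2. Values that use labelled sex therefore rest on labels in doubt. Labelled age was 250 days for female 10 and 241 days for castrated male 10. If these libraries were exchanged, their ages would be too, so values that use age share the doubt. Age was 243 ± 5.74 days in the high and 240 ± 5.6 days in the low group (SD, n = 6 each, exact permutation test, two-sided, p = 0.409, 0.632 adjusted over the 4 measures). Total counts per library, 25754778 to 51248122 over the series, and the share of counts in mitochondrially encoded genes, 13.6 ± 2.72% against 16.2 ± 6.62%, did not pass the same test either (p = 0.474 and 0.416).

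Libraries of both groups stood apart. The library labelled female 10, in the high group, and the library labelled castrated male 10, in the low group, carried the levels of the opposite sex at a pair of sex-specific loci. One locus lay at 549 to 1224 CPM in the other 9 females and 0 to 1.87 CPM in the other 9 castrated males, but at 0.408 CPM in the library under the label female 10 and 987 CPM in that under the label castrated male 10. The other locus mirrored it, at 226 to 325 CPM in 9 castrated males and 313 CPM in the library labelled female 10. Castrated male 1 had the lowest score, the lowest mitochondrial share (8.49%) and the highest summed level of 18 macrophage loci. The library labelled castrated male 10 had the highest mitochondrial share, 26.3%. Results are therefore also given without these libraries.

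Fat cell markers were present in both groups. PPARG, the master regulator of fat cells, had medians of 326 CPM in the high and 257 CPM in the low libraries. CEBPA, its partner factor, had medians of 305 and 230 CPM, and PNPLA2, the lipase that starts triglyceride breakdown, 605 and 592 CPM. The log2 differences, high minus low, were 0.27 ± 0.22, 0.33 ± 0.15 and 0.21 ± 0.19 (SE), and the groups overlapped for each of the 3 (adjusted p = 0.653, 0.421 and 0.7). The other 3 markers had lower medians in the low libraries by a wider margin, though none was called. LIPE, hormone-sensitive lipase, had medians of 710 and 426 CPM without overlap (log2 difference 0.75, adjusted p = 0.156). CIDEC, a protein of fat droplet fusion, had medians of 993 and 562 CPM (0.60, adjusted p = 0.506), and LGALS12, a galectin of fat cells, 299 and 186 CPM (0.48, adjusted p = 0.381). Differences are called here at a Benjamini-Hochberg adjusted p under 0.05 in edgeR's quasi-likelihood test, with 6 libraries a group and all loci past the low-count filter adjusted together. The libraries were ranked on measured values, so these p-values describe how other loci follow the score and not the effect of a treatment.

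Of 21406 loci tested, 23 were higher (0.107%) and 2 lower (0.00934%) in the high libraries, 0.117% in either direction. A further look at the unadjusted p found 2547 loci under 0.05, and DESeq2 called 296 higher and 165 lower, which held all 25. The median log2 difference over all loci was -0.03, with 46.4% above 0. Of the 23 higher loci, 13 carried a gene symbol, 6 an Ensembl identifier without a symbol and 4 no identifier. Among the 13 named loci were enzymes of acetyl-CoA supply, the pentose phosphate pathway, glycolysis, glycogen, fatty acid elongation and peroxisomal beta-oxidation. The others were PDK1, SLC2A4, ADIPOR2, SLC24A3, RETSAT and PCYOX1, described below.

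Acetyl-CoA supply and NADPH come first, since fatty acid synthesis draws on both, followed by the elongation of fatty acids. ACSS2, the cytosolic enzyme that makes acetyl-CoA from acetate, had a lowest, median and highest level of 168, 232 and 256 CPM in the high libraries against 32.3, 75.3 and 115 CPM in the low ones. Castrated male 1 was the lowest of all 20 libraries, castrated male 4 the highest, and the groups did not overlap. The log2 difference was 1.55 ± 0.25 (adjusted p = 0.0323), which is 1.40 without castrated male 1 (adjusted p = 0.0142). It was not called without the pair of libraries numbered 10 (adjusted p = 0.0532), and was called in 4 of the 12 fits without 1 library (adjusted p up to 0.0895, without female 9). ACSS3, the mitochondrial member of the same family, lay at 101, 114 and 175 CPM against 55.4, 69.4 and 79.8 CPM. Again the groups did not overlap, with a log2 difference of 0.86 ± 0.15 (adjusted p = 0.0403, and 0.0805 without castrated male 1).

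PGD, the phosphogluconate dehydrogenase that yields NADPH in the pentose phosphate pathway, was at 113, 131 and 143 CPM in the high libraries and 47.6, 61.0 and 85.9 CPM in the low ones. No low library reached a high one, and castrated male 1 was lowest. Its log2 difference of 1.06 ± 0.13 (adjusted p = 0.00731) was called in all 12 fits without 1 library, and without the pair numbered 10 (adjusted p = 0.0089). A second locus with the symbol PGD had a log2 difference of 0.70 and was not called (adjusted p = 0.316). The locus that joins ME1, the cytosolic malic enzyme and another NADPH source, with PGM3 had the wide spread of 652 to 1748 CPM against 102 to 1046 CPM and was not called (log2 difference 1.37 ± 0.44, adjusted p = 0.242).

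ELOVL5, which lengthens polyunsaturated fatty acids, was at 257, 287 and 333 CPM in the high libraries and 108, 142 and 170 CPM in the low ones. The groups were clear of each other, and the middle libraries spanned both, from 129 to 362 CPM with female 6 highest of all. The log2 difference was 1.01 ± 0.12 (adjusted p = 0.00731), called in all 12 fits without 1 library and without the pair numbered 10 (adjusted p = 0.0262). SLC25A1, the carrier that exports citrate from mitochondria, and ACSL1, which activates long-chain fatty acids, had log2 differences of 1.26 and 1.05 and were not called (adjusted p = 0.141 and 0.147). Both were picked out after their values were seen. The desaturases FADS1 and FADS2 stood at -0.17 and -0.16 (adjusted p = 0.819 and 0.79), named on the same basis. Of 15 tested loci of the fatty acid synthesis and desaturation list, scoring loci aside, 2 were called higher and none lower, 8 were above 0 and the median was 0.06. By name, ELOVL6 and ACACB had no locus.

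Glucose entry and glycolysis held 2 called genes of 19 tested loci, with 17 above 0 and a median log2 difference of 0.57. SLC2A4, the insulin-responsive glucose transporter, was counted at a low level, 2.64, 3.65 and 4.6 CPM in the high and 1.47, 1.64 and 2.09 CPM in the low libraries. The groups did not overlap, and the log2 difference of 1.13 ± 0.20 just passed (adjusted p = 0.048, and 0.0859 without castrated male 1). GPI, the glucose phosphate isomerase, was at 80.6, 92.7 and 97.0 CPM against 49.4, 56.4 and 66.7 CPM. Its groups did not overlap, female 9 was lowest, and the log2 difference was 0.69 ± 0.10 (adjusted p = 0.0113). A second GPI locus at 0.57 was not called (adjusted p = 0.148). Further members with groups that did not overlap but with no call were the muscle-type phosphofructokinase PFKM at 0.75 (adjusted p = 0.0656), PGAM1 at 0.57 (adjusted p = 0.0873) and ENO1 at 0.57 (adjusted p = 0.0938), named after their values were seen.

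GBE1, the branching enzyme of glycogen synthesis, was in no list and was called. It lay at 160, 181 and 250 CPM in the high libraries and at 51.5, 82.1 and 105 CPM in the low ones. The groups did not overlap, with female 4 highest and castrated male 1 lowest of all 20. The log2 difference of 1.27 ± 0.16 (adjusted p = 0.00731) was called in all 12 fits without 1 library, but not without the pair numbered 10 (adjusted p = 0.0601).

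The pyruvate entry and citric acid cycle list had 25 of 26 loci above 0 and a median log2 difference of 0.47, with 1 locus called. This was PDK1, a kinase that inhibits pyruvate dehydrogenase, at 14.1, 17.2 and 20.2 CPM in the high and 7.72, 8.75 and 11.9 CPM in the low libraries. Its groups did not overlap, and the log2 difference of 0.85 ± 0.15 (adjusted p = 0.048) was not called without castrated male 1 (adjusted p = 0.0859). A second PDK1 locus stood at 0.20 (adjusted p = 0.808). PDHA1 and PDHB, subunits of the dehydrogenase itself, had log2 differences of 0.71 and 1.04 (adjusted p = 0.0873 and 0.167), both picked after their values were seen. The summed level of the 26 loci was 5811 to 7543 CPM in the high and 3190 to 5049 CPM in the low libraries. These sums did not overlap. Castrated male 1 was lowest, so leaving it out could not change this.

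**Figure D2:**
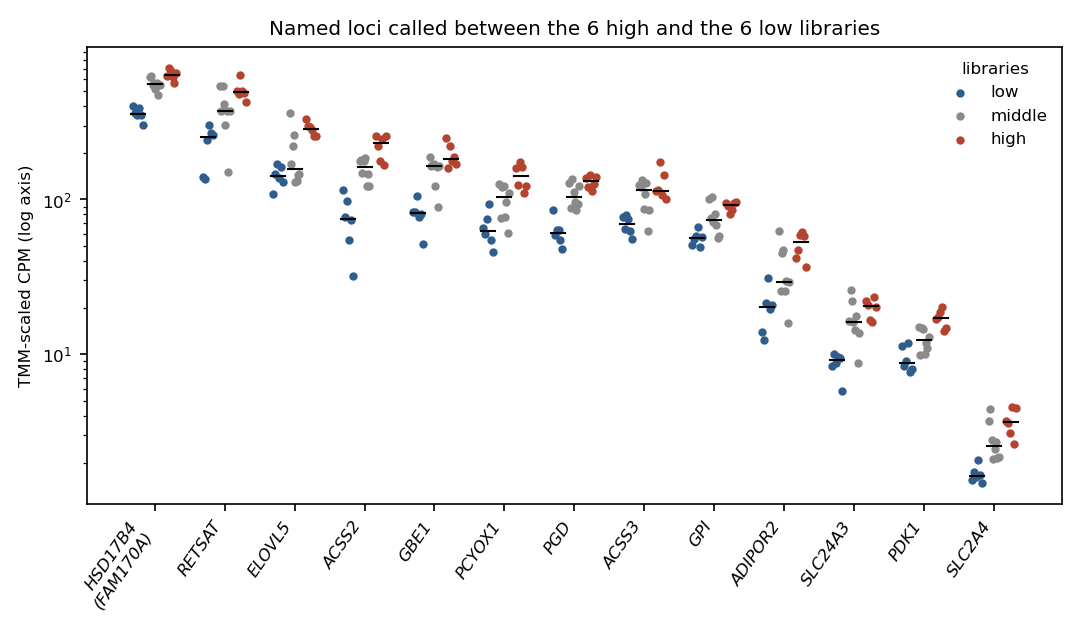
TMM-scaled CPM on a log axis of the 13 called loci with a symbol in the low (blue), middle (grey) and high (red) libraries. Each point is 1 library and black bars are group medians. CPM is not corrected for gene length, so levels are to be read within a gene, and for each of the 13 no low library reaches the lowest high library.

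The other enzymes of fuel use gave similar counts with few or no calls. In branched-chain amino acid breakdown, which feeds acetyl-CoA and propionyl-CoA to fat cells, 13 of 14 loci were above 0, the median was 0.56 and none was called. IVD, isovaleryl-CoA dehydrogenase, in a locus joined with DISP2, stood at 0.74 ± 0.24 (adjusted p = 0.243) and ALDH6A1 of valine breakdown at 0.65 ± 0.21 (adjusted p = 0.257). The summed level of the list was 1355 to 1963 CPM against 739 to 1323 CPM, again without overlap. Among nuclear respiratory chain subunits, 15 of 15 were above 0 with a median of 0.40 and no call. SDHA, the catalytic subunit of succinate dehydrogenase, stood at 0.66 ± 0.16 (adjusted p = 0.131). The 10 loci encoded in mitochondrial DNA were below 0 without exception, with a median of -0.29 and no call. Without the pair numbered 10, which includes the library of highest mitochondrial share, that median was 0.001. Without castrated male 1, the library of lowest mitochondrial share, it was -0.44, with none of the 10 above 0. Over all 20 libraries the median slope of these loci on the score was 0.07, with no call.

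Fatty acid oxidation had 18 of 24 loci above 0, a median of 0.31 and 1 call. This locus joins HSD17B4, the bifunctional enzyme of peroxisomal beta-oxidation, with FAM170A, and reads of the pair cannot be separated. It lay at 562, 638 and 708 CPM in the high and 304, 356 and 400 CPM in the low libraries. The groups did not overlap and castrated male 1 was lowest. The log2 difference of 0.83 ± 0.10 (adjusted p = 0.00731) was called in all 12 fits without 1 library and without the pair numbered 10 (adjusted p = 0.0262). CPT1A, the entry step of mitochondrial oxidation that malonyl-CoA inhibits, had the lowest value of the list, -0.80, and was not called (adjusted p = 0.167). It too was picked after its value was seen.

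Of the remaining called genes, ADIPOR2, a receptor of the fat cell hormone adiponectin, was at 36.8, 53.0 and 61.6 CPM against 12.4, 20.1 and 31.1 CPM. The groups did not overlap, yet the highest library of all 20, female 6, was in the middle of the ranking at 62.9 CPM. The log2 difference was 1.36 ± 0.21 (adjusted p = 0.0225, and 0.0505 without castrated male 1), and a second ADIPOR2 locus at 0.87 was not called (adjusted p = 0.252). RETSAT, an oxidoreductase that saturates retinol and is known in mouse fat cells as a PPARG target, was at 425, 495 and 638 CPM against 135, 252 and 302 CPM. No values were shared between the groups, and the log2 difference was 1.17 ± 0.20 (adjusted p = 0.0403, and 0.0555 without castrated male 1). PCYOX1, which breaks down prenylated cysteines, lay at 110, 142 and 175 CPM against 45.6, 62.7 and 93.6 CPM, with a log2 difference of 1.12 ± 0.17 (adjusted p = 0.0225). It was not called without the pair numbered 10 (adjusted p = 0.107), and was called in 6 of the 12 fits without 1 library. SLC24A3, a sodium, potassium and calcium exchanger, lay at 16.2, 20.4 and 23.6 CPM against 5.8, 9.16 and 10.1 CPM. Its groups did not overlap, and the log2 difference of 1.19 ± 0.16 (adjusted p = 0.00816) was called in all 12 fits without 1 library and without the pair numbered 10 (adjusted p = 0.0449).

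Of the 13 named genes, 8 were called without castrated male 1, 5 without the pair numbered 10 and 4 without all 3 libraries. The 5 called in each of the 12 fits without 1 library were GBE1, SLC24A3, PGD, ELOVL5 and the HSD17B4 locus. The count was 11 for GPI, 7 for ADIPOR2, 2 for RETSAT and PDK1, and 1 for ACSS3 and SLC2A4. Without the pair numbered 10, the 8 genes that lost their call had adjusted p from 0.0532 to 0.107. With labelled sex in the fit 9 of the 13 were called, and with labelled age 7. All 13 kept their direction in each of the 38 alternatives, which is no separate support. Their groups did not overlap, so leaving out libraries could hardly reverse a direction, and some redefined scores chose the same libraries. Neither of the 2 lower loci had a symbol. One, ENSSSCG00000003141, had means of 39.5 and 67.2 CPM in the high and low libraries, without overlap, and a log2 difference of -0.77 ± 0.10 (adjusted p = 0.0104). Among unnamed higher loci, ENSSSCG00000025541 had means of 191 and 51.7 CPM and a log2 difference of 1.88 ± 0.27 (adjusted p = 0.0137).

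Non-overlap of the groups, read without a test, held for 174 higher loci (0.813%) and 73 lower ones (0.341%). It held for 6 of 19 loci of glycolysis, 6 of 26 of pyruvate entry and the citric acid cycle, 5 of 24 of fatty acid oxidation, 3 of 14 of the NADPH list, 3 of 14 of branched-chain amino acid breakdown and 3 of 15 of fatty acid synthesis. The NADPH list had 1 called locus of 14, 12 above 0 and a median of 0.69. Its summed level was 3615 to 5513 CPM against 1378 to 3131 CPM.

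Storage and breakdown of triglyceride had no locus called between the groups. Of 18 loci of triglyceride assembly and the lipid droplet, 11 were above 0. The median was 0.11, and it was -0.006 without the pair numbered 10. GPAM, which makes lysophosphatidic acid in the first step, lay at 27.4, 31.4 and 46.7 CPM against 25.3, 28.6 and 34.5 CPM, with overlapping groups and a log2 difference of 0.20 ± 0.14 (adjusted p = 0.596). The locus that joins PLIN1, the coat protein of the fat droplet, with PEX11A stood at 0.53 ± 0.16 (adjusted p = 0.226). PCK1, the enzyme of glycerol synthesis from pyruvate, had the lowest value of the list, -1.58 (adjusted p = 0.276), and was named after its value was seen. DGAT2 had no locus by name.

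Lipolysis had 9 of 13 loci above 0, a median of 0.10 and no call. LIPE lay at 618, 710 and 864 CPM in the high and at 237, 426 and 589 CPM in the low libraries at its main locus. These groups did not overlap, and the library labelled castrated male 10 was lowest, but the log2 difference of 0.75 ± 0.19 was not called (adjusted p = 0.156). MGLL, monoglyceride lipase, was at 0.06 ± 0.19 (adjusted p = 0.925). Fatty acid uptake and transport had 4 of 12 above 0 and a median of -0.11, which turned to 0.03 with FPKM in place of counts. There FABP5, a fatty acid binding protein, stood at -0.42 ± 0.15 (adjusted p = 0.273).

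No regulator of lipogenesis was called between the groups among 12 tested loci, 9 of which were above 0 with a median of 0.09. INSIG1, the sterol sensor that holds the SREBP factors in the endoplasmic reticulum, lay at 87.2, 184 and 294 CPM against 60.9, 105 and 132 CPM. The groups overlapped, and the log2 difference was 0.97 ± 0.28 (adjusted p = 0.2). MLXIPL, the glucose-responsive factor ChREBP, sits in a locus with BCL7B and TBL2 that stood at 0.47 ± 0.18 (adjusted p = 0.319). SREBF1 and THRSP had no locus by name. Insulin signalling had 13 of 17 loci above 0, a median of 0.08 and no call, with the locus of AKT2, CCNP and TTC9B at 0.35 ± 0.18 (adjusted p = 0.457). Cholesterol synthesis and uptake had 12 of 18 above 0, a median of 0.12 and no call, with the locus that joins FDPS, which makes farnesyl diphosphate, with RUSC1 at 0.06 ± 0.15 (adjusted p = 0.905).

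**Figure D3:**
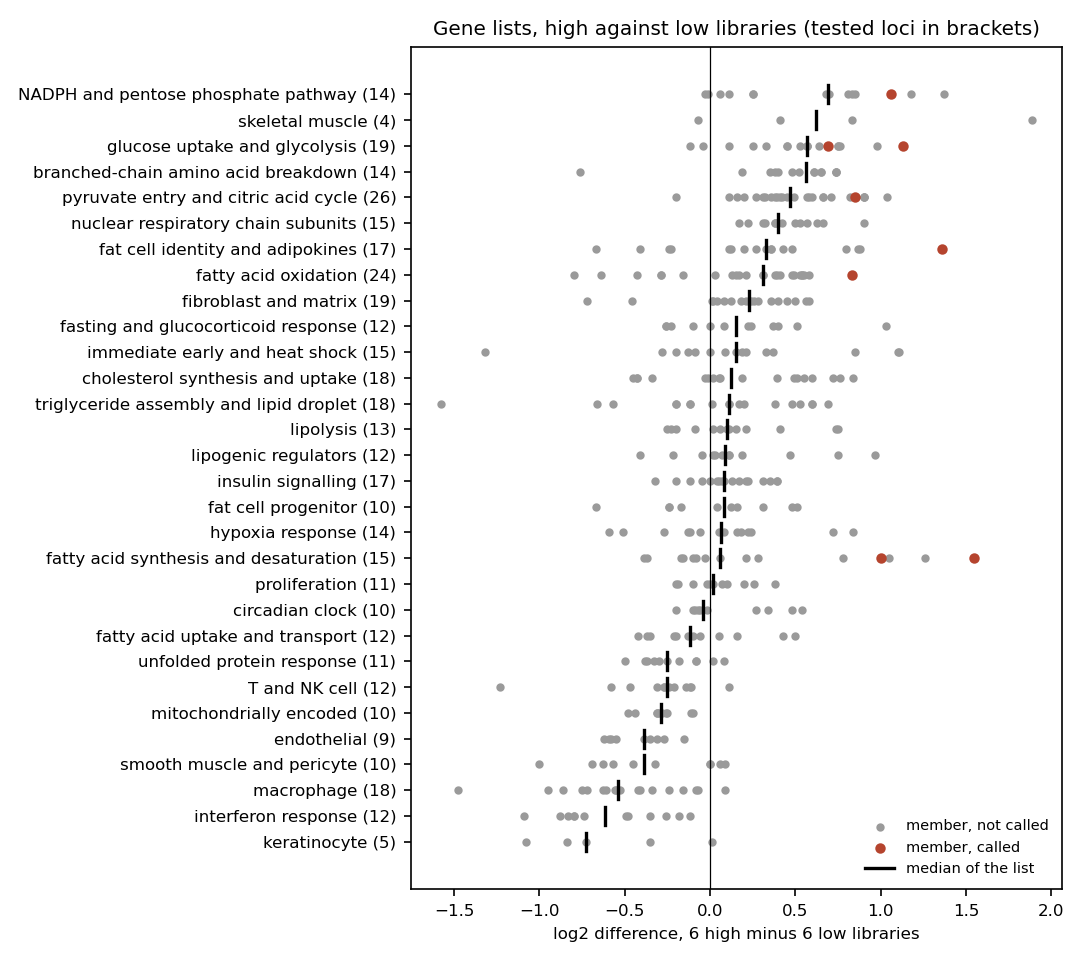
Log2 differences, high minus low libraries, of the members of each gene list with at least 4 tested loci (number in brackets). Grey points are members that were not called, red points called members, and black bars the median of the list. The NADPH, glycolysis, branched-chain amino acid and citric acid cycle lists have medians of 0.47 to 0.69. Medians are -0.62 for the interferon and -0.54 for the macrophage list. The skeletal muscle list (4 loci) has a median of 0.62, and the keratinocyte list (5 loci) has -0.73, the lowest shown. In the keratinocyte list KRT10 stands at 0.01, and KRT5 and KRT14 have no locus.

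Markers of other cell types moved beside these results, and their part in them was not tested. Of 18 macrophage loci 1 was above 0, with a median of -0.54 and no call. Their summed level was 1058 to 1683 CPM in the high libraries, 905 to 2175 CPM in 5 of the low ones and 4126 CPM in castrated male 1. Without that library the median was -0.01 and 8 of 18 were above 0. Castrated male 1 also had the highest CD68 of the 20 libraries at 206 CPM, in a locus shared with EIF4A1, and the highest C1QA at 389 CPM, while CD163 had no locus. T and NK cell loci had a median of -0.25, which was 0.04 without castrated male 1, and 1 of 12 was above 0.

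Endothelial loci lay below 0 for 9 of 9, with a median of -0.39 and -0.37 without castrated male 1, and none was called. Their summed level was 2181 to 3237 CPM in the high and 2988 to 3672 CPM in the low libraries, an overlap of 1 high library with the low range. PECAM1, the endothelial adhesion molecule, was at 984, 1180 and 1718 CPM against 1240, 1546 and 1789 CPM, a log2 difference of -0.31 ± 0.15 (adjusted p = 0.423). Smooth muscle and pericyte loci had 3 of 10 above 0 and a median of -0.39. Their summed level was 886 to 1373 CPM against 936 to 1878 CPM, and ACTA2, smooth muscle actin, stood at -0.63 ± 0.22 (adjusted p = 0.276). Fibroblast and matrix loci had 17 of 19 above 0, a median of 0.23 and no call, with 24127 to 31026 CPM in the high and 15664 to 30592 CPM in the low libraries. Skeletal muscle loci summed to 9.64 to 32.7 CPM against 5.92 to 23.7 CPM. The keratinocyte list, whose tested loci were KRT10, KRT8, KRT18, EPCAM and DSP, summed to 14.7 to 35.4 CPM against 16.9 to 47.7 CPM. Of the defining markers, CD3E, CDH5, COL1A1, the skeletal muscle genes CKM, MB and TNNT3, and the keratinocyte genes KRT5 and KRT14 had no locus. Skeletal muscle thus kept only ACTA1 of its defining markers, and keratinocytes none. No defining marker with a locus was at 0 in all libraries.

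**Figure D4:**
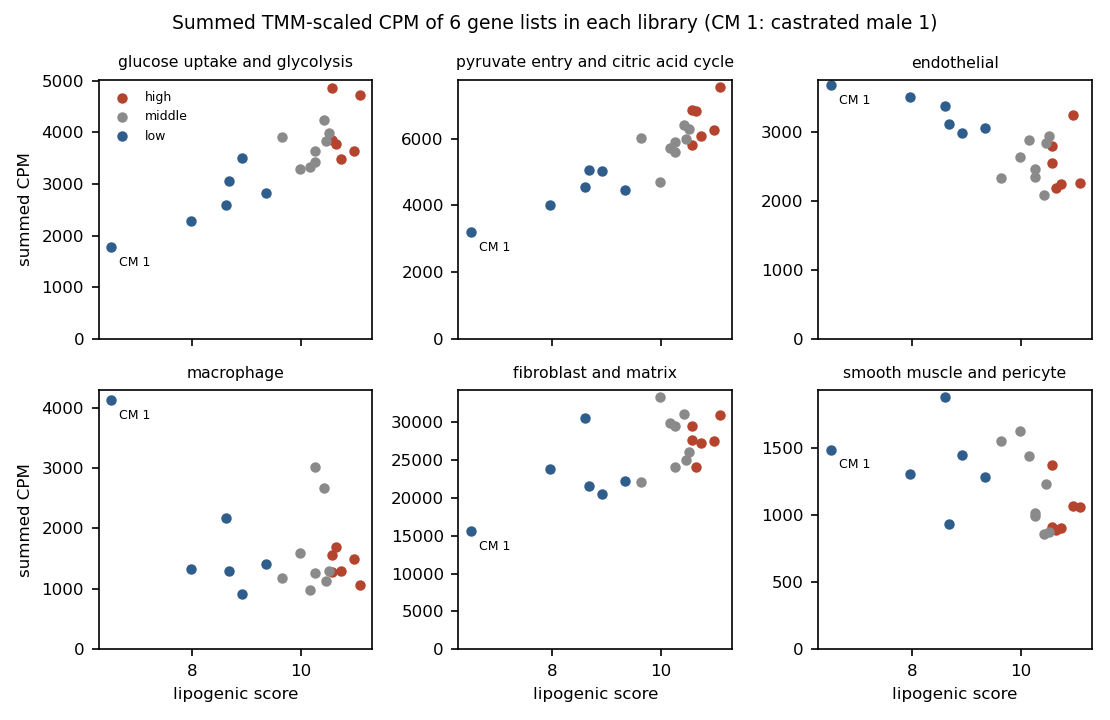
Summed TMM-scaled CPM of 6 gene lists against the lipogenic score, 1 point per library, coloured by group (blue low, grey middle, red high), with castrated male 1 marked. The citric acid cycle sums of the high libraries (5811 to 7543 CPM) lie above those of the low ones (3190 to 5049 CPM), and the macrophage sum of castrated male 1 is 4126 CPM.

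Over all 20 libraries the slope on the score used its whole range, and it shares the 12 libraries with the comparison above. Of 22731 loci tested, 368 rose with the score (1.62%) and 144 fell (0.633%). Without castrated male 1, 68 of 22723 loci tested rose and 30 fell. Of these, 62 and 11 were among the 368 and 144. Of the 13 named genes, 12 had a called slope, RETSAT being the other (adjusted p = 0.074), and 10 without castrated male 1. ACSS2 had a slope of 0.64 ± 0.05 log2 units per unit of score (adjusted p = 5.24e-07, and 5.62e-05 without castrated male 1), the HSD17B4 locus 0.30 ± 0.03 (adjusted p = 1.78e-05 and 7e-05) and PGD 0.39 ± 0.05 (adjusted p = 7.74e-05 and 0.000572).

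In the pathway lists, the slope was called upward for 16 of 26 loci of pyruvate entry and the citric acid cycle, 7 without castrated male 1. The counts were 12 of 19 and 5 for glycolysis, 8 of 14 and 3 for the NADPH list, and 5 of 15 and 3 for fatty acid synthesis. They were 10 of 15 and 2 for the nuclear respiratory chain, and 9 of 14 and 1 for branched-chain amino acid breakdown. PDHA1 kept its call without that library (adjusted p = 0.00127), as did the ME1 locus (adjusted p = 0.0267). Fatty acid oxidation had 9 upward and 2 downward calls of 24, and 1 and 0 without castrated male 1. The downward ones were CPT1A and CPT1B, both outer membrane carnitine palmitoyltransferases. Macrophage, T cell, smooth muscle, interferon and lipolysis lists had no called slope in either fit, and 1 of 9 endothelial loci fell, none without castrated male 1. Of 19 fibroblast and matrix loci 3 rose, the collagen genes COL3A1, COL5A1 and COL5A2, and of 10 fat cell progenitor loci 1 fell, DPP4. None of these 4 was called without castrated male 1. The list of lipogenic regulators had 1 upward call of 12, the MLXIPL locus (adjusted p = 0.0249, and 0.244 without castrated male 1). Triglyceride assembly and the lipid droplet had 1 of 18, AGPAT1 (adjusted p = 0.0101 and 0.144). Cholesterol synthesis and uptake had 2 of 18, ACAT2 (adjusted p = 0.00147 and 0.0454) and DHCR7 (0.0178 and 0.283).

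The 8 middle libraries took no part in the high against low comparison, and their scores span 0.875. The slope on the score among them was called for none of 22591 loci by edgeR, while 2182 had an unadjusted p under 0.05. By DESeq2, 108 were called upward and 64 downward. All 23 loci called higher in the high libraries had a slope above 0 among the middle libraries, against 50.6% of all 21382 loci with both values. Their median slope was 0.77 log2 units per unit of score, and 8 of the 23 had an unadjusted p under 0.05. The loci share the same 8 libraries and are not independent of each other. GPI had 0.92 ± 0.24 (unadjusted edgeR p = 0.00408), ACSS3 0.81 ± 0.34 and ACSS2 0.58 ± 0.25, while PGD stood at 0.03 ± 0.31 and PDK1 at 0.12 ± 0.33. Of the 2 lower loci, 1 had a slope below 0. Among the loci that did not overlap between the groups, 123 of 174 higher ones had a slope above 0 (70.7%) and 36 of 73 lower ones a slope below 0 (49.3%, against 49.4% of all loci).

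The lists did not all carry over. Slopes above 0 in the middle libraries were found for 15 of 19 glycolysis loci, 18 of 26 of pyruvate entry and the citric acid cycle, 8 of 14 of the NADPH list and 4 of 15 respiratory chain subunits. Macrophage loci had 17 of 18 above 0 with a median of 0.77, and T and NK cell loci 12 of 12 with a median of 0.98, the opposite sign to the high against low comparison with castrated male 1 in it. Without that library the high against low medians were -0.01, with 8 of 18 macrophage loci above 0, and 0.04, with 7 of 12 T and NK cell loci above 0. Smooth muscle loci had 2 of 10 above 0 and a median of -0.78, the same sign as before.

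**Figure D5:**
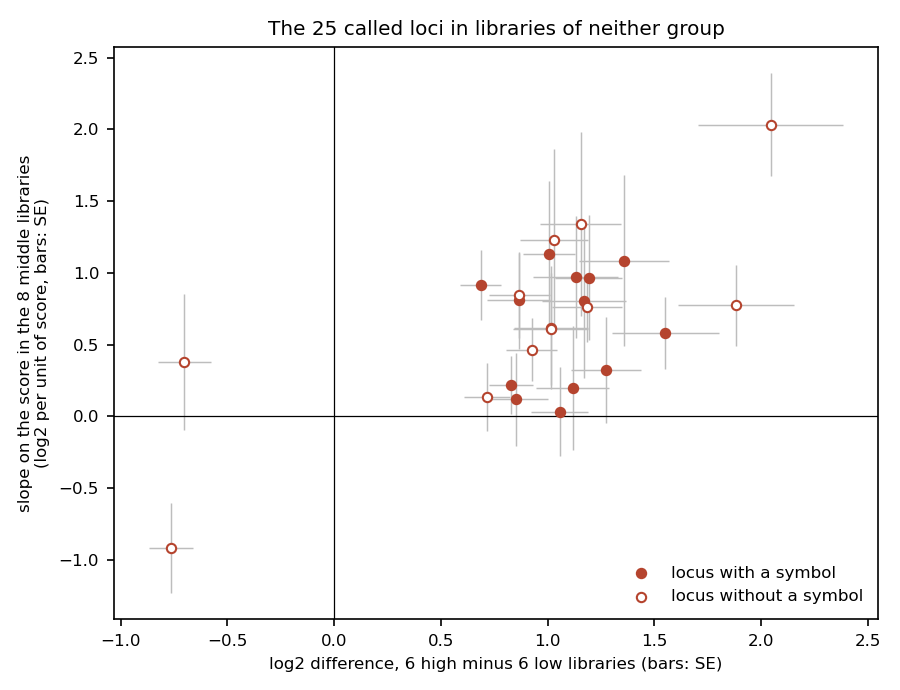
The 25 loci called between the 6 high and the 6 low libraries. The horizontal axis is their log2 difference and the vertical axis their slope on the score among the 8 middle libraries, with SE bars on both. All 23 loci to the right of 0 lie above 0 on the vertical axis, and of the 2 to the left 1 lies below.

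Whether the relation to the score differs between labelled females and castrated males was tested as an interaction over the 20 libraries. None of 22778 loci was called by edgeR in either direction, with 1241 at an unadjusted p under 0.05. DESeq2 called 14 loci with the more positive slope in females and 4 with the more positive slope in castrated males. Without castrated male 1, the library of lowest score, edgeR called 2 and 1. Without the pair numbered 10, whose sex labels are in doubt, edgeR called none in either direction, with 1142 at an unadjusted p under 0.05.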

How the data were processed

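Polyadenylated RNA of backfat was sequenced as paired reads, per the labels' protocols. The pig build was Sscrofa10.2, per the submitters' processing notes, which also list DESeq2, Cufflinks 2.1.1, Bowtie2 2.1.0.0 and TopHat2 2.0.8. Counting tool and strand setting: not given in the sources used here. Raw read counts were deposited by the authors for 23483 Cufflinks loci, and so were FPKM (fragments scaled to transcript length and library size) for the same loci, used here as an alternative unit. Symbols came by Ensembl identifier from a table of gene names (9360 loci named). Loci that join several genes are written with all names.

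Counts were tested with edgeR 4.0.16 (R 4.3.3; TMM factors, filterByExpr, quasi-likelihood, Benjamini-Hochberg at 0.05), with the scoring loci left out before the adjustment. Alternatives used DESeq2 1.42.0 and limma 3.58.1, with log2(FPKM + 0.1) or log2(FPKM + 1) for FPKM. CPM given per library are TMM-scaled except in the score. The fits were also run on simulated counts with planted differences. Each locus was drawn independently for fixed groups, so this does not cover the choice of groups by a measured score. The SE of a log2 difference or slope is its absolute value divided by the square root of the quasi-likelihood F statistic. That statistic uses variation between libraries, each from 1 animal, moderated across loci.

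The members, lists and alternatives were chosen with earlier results of these data known. Named genes were called loci with a symbol, mean CPM of at least 5 and groups that do not overlap (up to 12 per direction), up to 3 called members per list or, where none was called, the 2 of highest CPM, and a set of known lipogenic and fat cell genes whatever their result. Some named genes are not reported here.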

Additional observations from a re-analysis of the deposited data

Results flagged for a closer look

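Of 140 groups of 6 libraries tested with Dixon's criterion on the CPM of a named gene, total count, mitochondrial share or age, 12 held a library that stood apart from the other 5. Chance alone flags about 1 group in 20.

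Castrated male 1 was that library in 4 groups, all among the low libraries. It had 1193 CPM of the collagen gene COL1A2 against 3154 to 4258 CPM in the other 5. It had 1505 CPM of the locus joining CTSS, a lysosomal protease, with ARNT (others 527 to 892 CPM), 463 CPM of LAPTM5, a lysosomal protein of blood cells (others 98.5 to 169 CPM), and 46.3 CPM of the NK cell gene NKG7 (others 7.41 to 14.9 CPM).

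In the other low libraries, PNPLA2 was low in the library labelled castrated male 10 at 274 CPM (others 522 to 644 CPM). SFRP1, a secreted WNT inhibitor, was high in castrated male 9 at 418 CPM (others 137 to 238 CPM), and the chaperone HSP90AA1 in female 7 at 3879 CPM (others 677 to 1279 CPM).

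Among the high libraries, female 4 stood out for COL1A2 at 5957 CPM (others 3341 to 3624 CPM) and for the keratin KRT8 at 14.5 CPM (others 1.28 to 3.53 CPM). RETSAT was highest in the library labelled female 10 at 638 CPM (others 425 to 503 CPM). Castrated male 3 was low for the locus of PLIN1 and PEX11A at 1126 CPM (others 1394 to 1527 CPM) and high for the B cell gene MS4A1 at 0.544 CPM (others 0.239 to 0.32 CPM).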

How the results depend on the processing

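The number of loci called between the groups depended on the tool and on single libraries, and the cause was not tested. Against 23 higher and 2 lower loci, DESeq2 called 296 and 165, limma-voom with quality weights 39 and 8, and FPKM with a pseudocount of 1 called 40 and 8. Fitting all 20 libraries in 3 groups gave 109 and 22. Groups of 5 gave 9 and 0, groups of 7 gave 35 higher, and groups of 10 gave 57 and 12. With age in the fit 11 and 1 were called, with a score from FPKM 5 and 1, and with a score without ACLY 35 and 4. The lower count was 6 with FPKM and a pseudocount of 0.1, 4 without a filter on FPKM, and 1 without a filter on counts, with library totals alone, with sex, with sex and age, with a score without SCD, or without mitochondrial loci. Leaving out 1 library gave 7 (without female 9) to 19 higher and 1 to 3 lower. The higher count fell by more than 1.5 times without female 4 (10), castrated male 3 (15), female 10 (9), female 1 (11), female 7 (12), female 9 (7) or castrated male 1 (12). Without the pair numbered 10 it was 8 and 0, and without these and castrated male 1, an alternative chosen after seeing the data, 6 and 0.

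The slope over 20 libraries was called for 708 and 347 loci by DESeq2, 185 and 36 with ranks of the score, 68 and 30 without castrated male 1, and 59 and 23 without that library and the pair numbered 10 (added after seeing the data). With sex in the fit, 94 fell. Among the 8 middle libraries DESeq2 called 108 and 64. The interaction gave 14 and 4 with DESeq2 and 2 and 1 without castrated male 1. No named gene called between the groups changed direction, which their non-overlapping groups largely fixed in advance. Of the 144 loci whose slope over 20 libraries fell, 132 kept their sign without castrated male 1, and 138 with ranks of the score, where 367 of the 368 that rose kept theirs. Of 56 named genes that were not called, 4 passed in some alternative and 16 changed sign in one. The median of the proliferation list turned to -0.009 with library totals alone. No paired analysis was possible because the library numbers follow sample order and pair no animals. At 25754778 or more counts per library, the called gene with the fewest counts was SLC2A4, at 1.47 to 4.6 CPM.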

Other observations

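Interferon response loci were below 0 for 12 of 12, with a median log2 difference of -0.62, and none was called. Their summed level ran from 751 to 1109 CPM in the high and from 821 to 1902 CPM in the low libraries, with the library labelled castrated male 10 highest and castrated male 1 at 1751 CPM. MX2, an interferon-induced antiviral protein, was at 84.8, 119 and 224 CPM (lowest, median and highest) against 104, 222 and 378 CPM, a log2 difference of -0.80 ± 0.34 (SE, n = 6 per group, adjusted p = 0.369). In the 8 middle libraries 10 of 12 members had slopes above 0, the opposite sign.

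Unfolded protein response loci were above 0 for 2 of 11, with a median of -0.25 and no call. CALR, a chaperone of the endoplasmic reticulum, stood at -0.50 ± 0.18 (adjusted p = 0.291). EPAS1, a hypoxia-inducible factor also abundant in endothelium, lay at 425 to 816 CPM against 755 to 1032 CPM, a log2 difference of -0.51 ± 0.15 (adjusted p = 0.206). Its slope over 20 libraries was called downward (adjusted p = 0.0486, and 0.178 without castrated male 1). HIF1A, another hypoxia-inducible factor, stood at 0.16 ± 0.22 (adjusted p = 0.816). The hypoxia list as a whole had 8 of 14 above 0 and a median of 0.06. The clock, proliferation, immediate early and heat shock, fasting and glucocorticoid and fat cell progenitor lists had medians of -0.04, 0.02, 0.15, 0.15 and 0.08 with no call between the groups. That of the clock list turned to 0.01 with FPKM, and that of the progenitor list to -0.01 without castrated male 1. In the fasting list the slopes of KLF9 and SESN1 over 20 libraries were called upward (adjusted p = 0.033 and 0.0283). Without castrated male 1 neither was called (0.22 and 0.245), while PPARA was (0.0447, against 0.141 with it). The locus of ADIPOR2 aside, the fat cell identity list had no call, with 13 of 17 above 0 and a median of 0.33.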
